A study of Mus musculus with 19 samples.

Results

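Growing axons end in growth cones, and 10 genes whose proteins act there or in the extending axon are described across developing cortical projection neurons of the mouse. The genes are Gap43, Stmn1, Stmn2, Dcx, Dpysl2, Dpysl3, Dpysl5, Crmp1, Marcks and Basp1. They were chosen by name for their known function, with earlier results of these data known. All 10 were measured, among 18193 genes on the array, and each was read from 1 probe set, the brightest by its mean over 19 arrays among those that carry its symbol alone. Neurons of C57BL/6 mice had been labelled through their axons with fluorescent microspheres and purified by fluorescence-activated sorting. Corticotectal projection neurons (CTPN), which reach the midbrain tectum, came from visual cortex at postnatal day 14 (P14), with 2 arrays. Corticospinal motor neurons (CSMN), which project to the spinal cord, came from sensorimotor cortex, with 2 arrays at embryonic day 18 (E18), 3 at P3, 2 at P6 and 2 at P14. Callosal projection neurons (CPN), which join the hemispheres, came from sensorimotor cortex at the same 4 stages with 2 arrays each. No group carries a mutation or drug treatment in the labels. Replicates are separate collections per the design text, and every RNA passed 2 rounds of linear amplification before labelling, per the labels.

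Growth cones steer and extend an axon by coupling a dynamic actin network at the leading edge to microtubules that push in from the shaft. Doublecortin (Dcx) binds and stabilises microtubules in young neurons, stathmins bind free tubulin and promote microtubule turnover, and the collapsin response mediator proteins (CRMPs, encoded by Dpysl2, Dpysl3, Dpysl5 and Crmp1) bind tubulin and relay semaphorin signals. Gap43, Marcks and Basp1 encode membrane-associated proteins that bind calmodulin or acidic lipids, act on actin at the membrane and are substrates of protein kinase C. Corticospinal and callosal axons are still extending around birth in the mouse, and their branches are pruned during the first postnatal weeks.

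Values are log2 expression from robust multi-array averaging (RMA), so a difference of 1 is a doubling, and a difference is given ± the standard error (SE) of a limma model fitted to all genes and arrays. A gene passed the test when its p, adjusted over all genes by Benjamini-Hochberg, was under 0.05. This fit, on all arrays and the deposited values, is called the main model below. Array medians lay between 6.42, on CSMN P14 replicate 1, and 6.62, on CSMN P14 replicate 2. All 10 genes were above the array medians on all 19 arrays. The set of 5 corticospinal identity genes had a median of 10.4 to 12.3 on CSMN arrays and 7.19 to 9.41 on CPN arrays, and the set of 5 callosal identity genes had 6.25 to 7.46 on CSMN arrays and 8.99 to 9.92 on CPN arrays. Both CPN arrays at E18 stood apart in markers of other cells. Their medians were 11.4 and 11.4 for 10 radial glia and intermediate progenitor genes, against 5.94 to 8.16 on the other 17 arrays, and 9.75 to 9.80 for 9 cell cycle genes, against 6.35 to 7.59. Astrocyte genes (8 measured) were at 9.40 to 9.67 there, against 6.74 to 7.84 elsewhere, and 8 pan-neuronal genes, which include Stmn2, at 9.83 to 9.84, against 10.9 to 12.7. The CSMN P14 arrays differed in 7 microglia genes, with medians of 8.57 in replicate 1 and 7.19 in replicate 2. Over all arrays these medians ran from 6.49 to 8.92. The part of this difference in the results was not tested. In sorted populations fewer cells of a type and less RNA per cell cannot be told apart. Both CSMN arrays at P14 agreed least of all replicates (Pearson r = 0.904 over all genes, against 0.949 to 0.996 in the other groups), and tests of the 10 genes that rest on them are given with and without each where the call or size moved. Leaving out 1 of them leaves a single array in that group, whose spread the model then takes from the other groups, and the adjusted p of such a fit is given as a description. For the P14 against P3 comparison in CSMN, 44.6% of all genes passed without replicate 1 and 7.76% without replicate 2.

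Most of the genes were highest at P3 or P6 and lowest at P14. In CSMN 5 genes had their highest group mean at P3, 4 at P6 and 1, Dpysl2, at E18. In CPN the same counts held, with Marcks as the gene highest at E18. The lowest mean was at P14 for 7 of 10 genes in CSMN and for 8 of 10 in CPN. The exceptions, lowest at E18, were Gap43, Stmn2 and Basp1 in CSMN and Gap43 and Basp1 in CPN. Between P14 and P3, 4 of 10 genes fell in CSMN (12.6% of all genes passed there, 8.16% as lower) and 6 of 10 fell in CPN (8.13% of all genes passed, 3.45% as lower). The median difference over the 10 genes was -0.83 in CSMN and -1.06 in CPN, against 0.03 and 0.04 over all genes. Genes whose P14 arrays were all below their P3 arrays numbered 7 of 10 in CSMN, where 18.5% of all genes did so, and 10 of 10 in CPN, where 27.1% did.

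**Figure D1:**
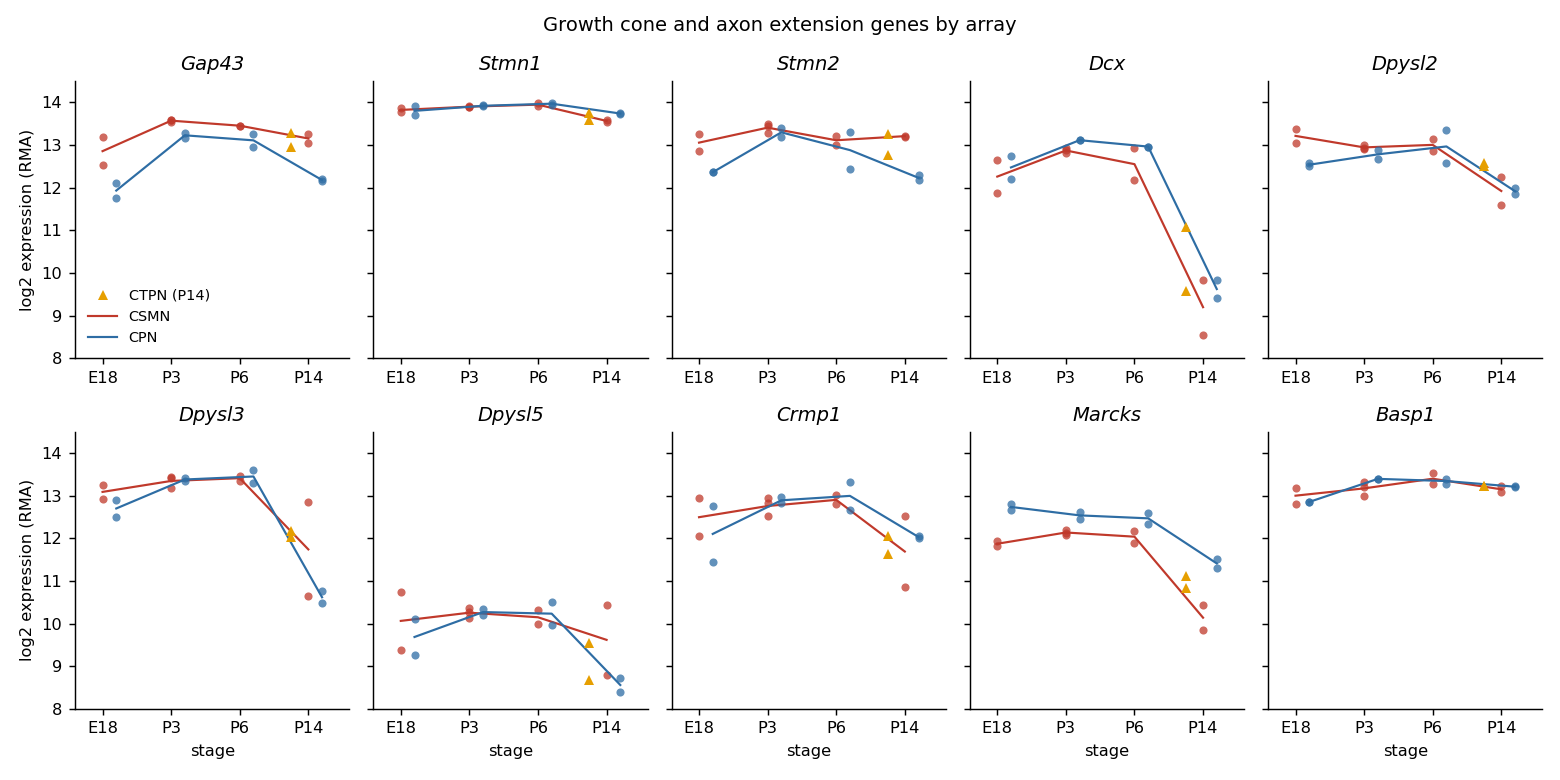
Log2 expression of each of the 10 genes on every array, by stage (E18, P3, P6 and P14) in CTPN (triangles, P14 alone), CSMN and CPN; points are arrays and lines join group means. Dcx, Dpysl3 and Marcks drop at P14 in both types, and Gap43 and Stmn2 separate CSMN from CPN at P14. Stmn1 and Basp1 stay within a narrow range by the probe sets shown.

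Among the microtubule proteins, Dcx (chromosome X, 143855842-143933396 in the RefSeq annotation of GRCm38.p6) showed the largest fall of the 10. CSMN arrays read 12.64 and 11.87 at E18, 12.87, 12.94 and 12.80 at P3, 12.17 and 12.93 at P6, then 9.84 and 8.55 at P14. CPN arrays read 12.21 and 12.74 at E18, 13.12 and 13.11 at P3, 12.96 and 12.96 at P6, then 9.41 and 9.83 at P14. All 4 P14 arrays of these types lay below every earlier array. Dcx was 12.8-fold lower at P14 than at P3 in CSMN (-3.68 ± 0.42, limma adjusted p = 9.71e-05) and 11.2-fold lower in CPN (-3.49 ± 0.46, adjusted p = 0.000258). In CSMN the difference was -4.32 without CSMN P14 replicate 1 and -3.03 without replicate 2, and it passed in both. Nearly all of it lay between P6 and P14, a difference of -3.35 ± 0.46 in CSMN and -3.34 ± 0.46 in CPN. Dcx RNA remained above the array medians at P14 on every array.

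The 250 bases before 1 of 2 listed start sites of Dcx, the gene with the largest fall, are set beside those before the start of Basp1. Basp1 passed no test in the main model, and the pair shows how different these sequences are. Both Dcx start sites lie within the gene's annotated span given above, so part of the Dcx window is inside the gene. Both are from RefSeq on GRCm38.p6 and run 5′ to 3′ on the gene's strand. Capitals mark matches on either strand to the TATA box, searched as TATAAA, the CCAAT box, searched by those letters, and the GC box, searched as GGGCGG. Matches to the GC box may overlap each other.
Dcx: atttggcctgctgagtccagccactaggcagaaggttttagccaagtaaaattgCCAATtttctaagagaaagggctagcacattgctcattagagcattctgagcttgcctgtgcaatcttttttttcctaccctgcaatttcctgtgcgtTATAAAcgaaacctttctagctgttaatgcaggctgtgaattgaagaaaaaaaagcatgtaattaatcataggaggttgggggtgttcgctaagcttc
Basp1: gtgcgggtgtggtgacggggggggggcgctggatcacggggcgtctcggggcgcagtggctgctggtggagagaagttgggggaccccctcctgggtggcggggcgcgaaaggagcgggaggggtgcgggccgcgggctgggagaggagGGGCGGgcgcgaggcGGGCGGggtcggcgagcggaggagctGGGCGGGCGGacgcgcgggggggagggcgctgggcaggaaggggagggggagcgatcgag
The Dcx window (chrX:143933220-143933469, minus strand) has a GC content of 41.6% and holds 1 TATA box, 1 CCAAT box and 0 GC boxes. The window of the other Dcx start site (chrX:143933125-143933374) overlaps it, has a GC content of 44.8% and holds the TATA box, with 0 CCAAT boxes and 0 GC boxes. Basp1's window (chr15:25413765-25414014, minus strand) has a GC content of 78.8% and holds 4 GC boxes and neither of the others. Of 32851 RefSeq windows of this length, 12.4% hold the TATA box, 33.8% the CCAAT box and 32.7% the GC box, and the median GC content is 52.4%. Windows were found for 4 of the 10 genes, and a match describes the letters only.

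Of the stathmins, Stmn2 fell in CPN between P3 and P14, and Stmn1 passed no test by its brightest probe set in the main model. Stmn2 (chromosome 3, 8509527-8561604), a neuronal stathmin attached to vesicle membranes and carried to the growth cone, read 13.25 and 12.86 at E18, 13.27, 13.49 and 13.46 at P3, 13.01 and 13.21 at P6, then 13.22 and 13.20 at P14 in CSMN. In CPN it read 12.36 and 12.36, 13.40 and 13.20, 12.45 and 13.31, and 12.29 and 12.17 at the same stages. CSMN thus ended near their P3 level while both CPN arrays at P14 lay below both at P3. In CPN Stmn2 was 2.10-fold lower at P14 than at P3 (-1.07 ± 0.26, adjusted p = 0.0179), and in CSMN the difference was -0.20 ± 0.24 (adjusted p = 0.594). The difference between these changes, 0.87 ± 0.35, did not pass (adjusted p = 0.528). A second Stmn2 probe set, of similar brightness, gave -0.51 in CPN (adjusted p = 0.474), so the fall in CPN was called from 1 of 2 probe sets. The call was also lost without any 1 of the 4 CPN arrays compared (adjusted p = 0.0769 to 0.167) and with cyclic loess normalization (adjusted p = 0.0546). Stmn1 (chromosome 4, 134468320-134473843), the cytosolic stathmin, varied between 13.54 and 13.99 over all arrays, near the highest value of any probe set (14.4). By this probe set it gave -0.34 ± 0.14 between P14 and P3 in CSMN and -0.18 ± 0.15 in CPN. The CSMN difference passed with an intensity trend in the model (adjusted p = 0.0278). In CSMN P14 against E18 passed with cyclic loess (-0.61, adjusted p = 0.0251). The brighter set is marked as open to cross-hybridization, and the dimmer set is not. By its dimmer probe set Stmn1 was lower at P14 than at P3 in CSMN (-1.41, adjusted p = 0.00834) and differed by -0.40 in CPN (adjusted p = 0.714). That set was also lower at P14 in CSMN against E18 (-1.76, adjusted p = 0.00273) and P6 (-1.22, adjusted p = 0.0472). In CPN it gave -0.26 against E18. Whether the brighter set is near its upper limit was not tested.

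Of the CRMP genes, Dpysl2 and Dpysl3 fell between P3 and P14 in CSMN, and Dpysl3 and Dpysl5 fell in CPN. Dpysl3 (chromosome 18, 43320979-43438286, CRMP4) read 13.25 and 12.92 at E18, 13.42, 13.45 and 13.17 at P3, 13.35 and 13.47 at P6, then 12.84 and 10.64 at P14 in CSMN. CPN arrays read 12.90 and 12.50, 13.34 and 13.41, 13.60 and 13.30, and 10.48 and 10.76. Both CPN arrays at P14 were far below all earlier ones, while 1 CSMN array at P14 was as low and the other close to the E18 level. Dpysl3 was 6.78-fold lower at P14 than at P3 in CPN (-2.76 ± 0.46, adjusted p = 0.00149) and 3.04-fold lower in CSMN (-1.61 ± 0.42, adjusted p = 0.021). Without CSMN P14 replicate 2 the CSMN difference was -0.51 (adjusted p = 0.232), and without replicate 1 it was -2.71, so the size of the CSMN fall turns on which array is used. A second Dpysl3 probe set passed in both types, with -2.70 in CSMN and -3.48 in CPN.

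Dpysl2 (chromosome 14, 66802864-66911041, CRMP2), which promotes microtubule assembly in axons, was the only one of the 10 with its highest CSMN mean at E18. Its CSMN arrays read 13.38 and 13.05 at E18, 12.89, 12.93 and 13.01 at P3, 12.86 and 13.14 at P6, then 12.25 and 11.59 at P14. Its CPN arrays read 12.58 and 12.50, 12.68 and 12.88, 13.35 and 12.58, and 11.99 and 11.84. The P14 arrays were the lowest of their type in both. In CSMN it fell by 1.29 ± 0.26 relative to E18 (adjusted p = 0.00353) and by 1.02 ± 0.23 relative to P3 (adjusted p = 0.011), the second lost without CSMN P14 replicate 2 (-0.69, adjusted p = 0.131). The difference from E18 was -0.96 without that array (adjusted p = 0.0194) and -1.62 without replicate 1. In CPN it fell by 1.05 ± 0.26 relative to P6 (adjusted p = 0.0255), where the P6 arrays were 13.35 and 12.58, and the difference from P3, -0.86 ± 0.26, did not pass (adjusted p = 0.0536). Without CPN P6 replicate 1 the difference from P6 was -0.66 (adjusted p = 0.253). A second Dpysl2 probe set gave -0.05 for the same step (adjusted p = 0.997), and the mean of all probe sets gave -0.55 (adjusted p = 0.115). The second set was far dimmer, with a mean of 7.20 against 12.66 for the one used. This fall was called from the brighter set alone, and whether the dimmer set can show it was not tested. The CPN difference from P3 passed with quantile normalization (-0.85, adjusted p = 0.0192) and cyclic loess (-0.81, adjusted p = 0.00967). For that difference the second probe set gave 0.07.

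Dpysl5 (chromosome 5, 30711564-30799369, CRMP5) read 10.44 and 8.79 at P14 in CSMN, on either side of most earlier CSMN arrays (9.39 to 10.73). At P14 in CPN it read 8.73 and 8.39, below its 6 earlier CPN arrays (9.25 to 10.50). It was lower at P14 than at P3 in CPN, by 1.71 ± 0.50, just within the threshold (adjusted p = 0.0488), and CSMN gave -0.64 ± 0.46. The CPN call of Dpysl5 held in 17 of 30 recomputations. A second probe set gave -0.35 (adjusted p = 0.694), but its mean of 5.69 lay below all array medians, so it cannot decide on the fall. Crmp1 (chromosome 5, 37242058-37292163), an effector of semaphorin signalling, read 12.53 and 10.85 at P14 in CSMN and 12.01 and 12.05 in CPN. Its differences between P14 and P3, -1.07 ± 0.45 in CSMN and -0.86 ± 0.49 in CPN, did not pass. With CSMN P14 replicate 2 as the lone P14 array, the CSMN differences from P3 were -1.91 for Crmp1 and -1.46 for Dpysl5. With replicate 1 as the lone array they were -0.23 for Crmp1 and 0.19 for Dpysl5, so both CSMN estimates turn on which array is used.

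**Figure D2:**
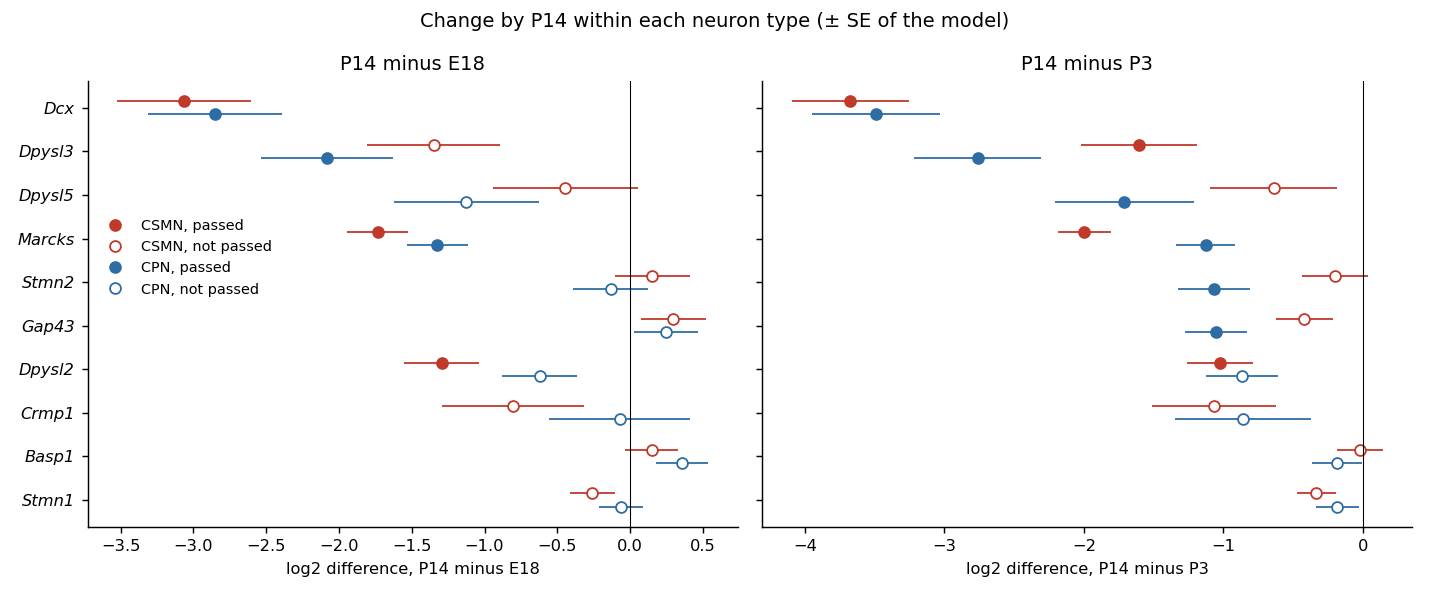
Difference in log2 expression for each gene between P14 and E18 (left panel) and between P14 and P3 (right panel), in CSMN and in CPN, with bars of ± SE from the limma model; filled points passed the test. Dcx lies lowest in all 4 comparisons, at -3.68 in CSMN and -3.49 in CPN against P3, and Basp1 lies between -0.18 and 0.36.

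Of the membrane-associated substrates of protein kinase C, Marcks fell by P14 in both types, Gap43 fell in CPN and Basp1 passed no test in the main model. Gap43 (chromosome 16, 42248552-42340651), the growth-associated protein that marks extending and regenerating axons, rose between E18 and P3 in both types and fell by P14 in CPN. CSMN arrays read 13.19 and 12.52 at E18, 13.59, 13.59 and 13.53 at P3, 13.45 and 13.46 at P6, then 13.26 and 13.04 at P14. CPN arrays read 12.10 and 11.76, 13.17 and 13.28, 13.25 and 12.96, and 12.20 and 12.16. In CPN the P14 arrays were back near the E18 ones, and in CSMN they were a little below the P3 ones. At P3 Gap43 was 2.46-fold higher than at E18 in CPN (1.30 ± 0.22, adjusted p = 0.00176) and 1.64-fold higher in CSMN (0.72 ± 0.20, adjusted p = 0.0387). The CSMN rise was 0.38 without CSMN E18 replicate 2 (adjusted p = 0.281) and 0.10 with cyclic loess normalization (adjusted p = 0.763). At P14 Gap43 was 2.07-fold lower than at P3 in CPN (-1.05 ± 0.22, adjusted p = 0.00829), and CSMN differed by -0.42 ± 0.20 (adjusted p = 0.184). The CPN call was lost without any 1 of the 4 CPN arrays compared (adjusted p = 0.0573 to 0.0854). The difference between those changes was 0.63 ± 0.30 and did not pass (adjusted p = 0.553).

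Marcks (chromosome 10, 37133243-37138926), which binds phospholipids and cross-links actin until phosphorylated, declined in both types. CSMN arrays read 11.81 and 11.93 at E18, 12.13, 12.09 and 12.19 at P3, 11.90 and 12.17 at P6, then 10.43 and 9.84 at P14. CPN arrays read 12.80 and 12.67, 12.62 and 12.46, 12.59 and 12.34, and 11.51 and 11.30. No CSMN array reached the lowest CPN array of its own stage, and P14 was lowest in both types. Marcks was 3.99-fold lower at P14 than at P3 in CSMN (-2.00 ± 0.19, adjusted p = 2.43e-05) and 2.18-fold lower in CPN (-1.13 ± 0.21, adjusted p = 0.00339). The difference between these falls, -0.87 ± 0.28, did not pass (adjusted p = 0.391). It was -1.16 without CSMN P14 replicate 1 (adjusted p = 0.00726) and -0.58 without replicate 2. The fall in CSMN was -2.29 and -1.70 in these fits and passed in both. Of the 7 Marcks probe sets the one used is marked as open to cross-hybridization, and the second brightest, without that mark, gave -1.99 in CSMN and -1.42 in CPN.

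Basp1 (chromosome 15, 25363277-25413764), a myristoylated membrane protein related in function to Gap43, kept a level between 12.81 and 13.53 on all arrays. Its P14 arrays read 13.22 and 13.08 in CSMN and 13.22 and 13.20 in CPN, against 12.99, 13.31 and 13.20 at P3 in CSMN and 13.39 and 13.40 in CPN. The difference between P14 and P3 was -0.02 in CSMN (95% interval -0.38 to 0.33) and -0.18 in CPN (-0.57 to 0.20). Its CPN arrays at E18, those with high progenitor markers, read 12.86 and 12.85, below both CPN arrays at P3. This rise to P3 of 0.54 did not pass in the main model. It passed with quantile normalization (0.63, adjusted p = 0.026) and with an intensity trend in the model (adjusted p = 0.0334).

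Step by step, genes were called in the first and last intervals and none between P3 and P6. Between E18 and P3, Gap43 rose in CSMN (1 of 10 genes, with 10.4% of all genes passing and 7.93% higher), and Gap43 and Stmn2 rose in CPN (2 of 10, with 8.08% passing and 3.86% higher). The rise of Stmn2 in CPN was 0.94 ± 0.26 (adjusted p = 0.036), and its second probe set gave 1.18 (adjusted p = 0.0274). It was lost without any 1 of the 4 CPN arrays compared (adjusted p = 0.132 to 0.245). The CPN comparisons use the E18 arrays with high progenitor, cell cycle and astrocyte markers, and 7 of 8 pan-neuronal genes, Stmn2 among them, also rose in CPN between E18 and P3. The part of those markers in the result was not tested. Between P3 and P6, 0 of 10 genes passed limma's test in either type, 0 had an unadjusted p under 0.05, and 0.0275% of all genes passed in CSMN and 0.0055% in CPN. Between P6 and P14, 4 of 10 fell in CSMN (Dcx, Marcks, Dpysl3 and Dpysl2, with 6.03% of all genes passing and 4.28% lower) and 5 of 10 in CPN (the same 4 and Gap43, with 5.84% passing and 2.31% lower). The CPN call of Gap43 over this step (-0.93, adjusted p = 0.0219) was lost without any 1 of the 4 CPN arrays compared. Its differences then ran from -1.08 to -0.79. That of Marcks was lost without CPN P6 replicate 1 (-0.93) or CPN P14 replicate 2 (-0.95). Dpysl5 in CPN did not pass over this step in the main model. It passed with quantile normalization (-1.67, adjusted p = 0.0163) and cyclic loess (-1.70, adjusted p = 0.0114). The CSMN call of Dpysl3 over this step (-1.67 ± 0.46, adjusted p = 0.0445) held in 10 of 30 recomputations. Without CSMN P14 replicate 2 it was -0.57 (adjusted p = 0.278) and without replicate 1 -2.77, and Dpysl2 (-1.08, adjusted p = 0.0254) gave -0.75 (adjusted p = 0.184) and -1.41. Crmp1 (-2.05) and Dpysl5 (-1.35) passed over this step when replicate 1 was left out. At P14 against E18, 3 of 10 were lower in CSMN (Dcx, Marcks and Dpysl2, with 15.1% of all genes passing and 5.85% lower) and 3 of 10 in CPN (Dcx, Dpysl3 and Marcks, with 19.2% passing and 8.98% lower). None of the 10 was called higher over that interval. Without CSMN P14 replicate 1, Dpysl3 (-2.45) and Crmp1 (-1.65) were also past the test in CSMN, and without replicate 2 they gave -0.25 and 0.04.

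CSMN were next compared with CPN. Averaged over the 4 stages, Gap43 was 1.57-fold higher in CSMN (0.65 ± 0.11, adjusted p = 0.00134), Stmn2 1.42-fold higher (0.50 ± 0.13, adjusted p = 0.0214) and Marcks 1.67-fold lower (-0.74 ± 0.10, adjusted p = 0.000273), 3 of 10 genes against 8.29% of all genes. Every Gap43 array of CSMN was above every CPN array of its stage. Without the E18 arrays Gap43 gave 0.55 (adjusted p = 0.0177), Marcks -0.70 (adjusted p = 0.00229) and Stmn2 0.44 (adjusted p = 0.13), so Stmn2 no longer passed. Dpysl3, 0.36 with all arrays, was 0.63 without CSMN P14 replicate 2 (adjusted p = 0.000756) and 0.08 without replicate 1. The estimates were widest at the ends of the series. At E18, where 12.9% of all genes passed, Gap43 was higher in CSMN by 0.92 ± 0.22 (adjusted p = 0.0138) and Marcks lower by 0.86 ± 0.21 on the log2 scale (adjusted p = 0.0143). The E18 call of Marcks was lost with quantile normalization (-0.52, adjusted p = 0.0701) and cyclic loess (-0.57, adjusted p = 0.0555). Dpysl2 and Stmn2 did not pass at E18 in the main model. Dpysl2 passed as higher in CSMN with quantile normalization (0.93, adjusted p = 0.00834) and cyclic loess (0.99, adjusted p = 0.00204). Stmn2 did so too (0.94, adjusted p = 0.036, and 1.01, adjusted p = 0.0449), as did its second probe set (1.16, adjusted p = 0.0231). All E18 values rest on the same CPN arrays with high progenitor markers. At P3 and P6, 0 of 10 genes passed limma's test, 0 had an unadjusted p under 0.05, and 0.874% and 1.07% of all genes passed. Gap43 differed there by 0.34 ± 0.20 and 0.34 ± 0.22, and Marcks by -0.40 ± 0.19 and -0.43 ± 0.21.

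At P14, where 1.39% of all genes passed, Gap43 was 1.97-fold higher in CSMN (0.97 ± 0.22, adjusted p = 0.0444) and Marcks 2.42-fold lower (-1.27 ± 0.21, adjusted p = 0.00641). The Gap43 call at P14 held in 11 of 30 recomputations, with a difference between 0.87 and 1.10, and that of Marcks in 27 of 30, with a difference between -1.56 and -0.97. Stmn2 was of the same size as Gap43, 0.98 ± 0.26, and did not pass (adjusted p = 0.089). It was 0.97 without CSMN P14 replicate 1 (adjusted p = 0.0275) and 0.99 without replicate 2 (adjusted p = 0.166). Dpysl3 differed by 1.12 ± 0.46, with 1 CSMN array above both CPN arrays and the other between them (12.84 and 10.64 in CSMN, against 10.48 and 10.76 in CPN). Without CSMN P14 replicate 2 it was 2.22 (adjusted p = 0.000367), and without replicate 1 it was 0.02 (adjusted p = 0.951). In the main model the remaining 6 genes did not pass at any stage. Their intervals at P14 run from -1.41 to 0.56 for Dcx and from -0.45 to 0.33 for Basp1. Tests of whether the change over time differed between types called 0 of 10 genes, both for P14 against E18 (5.18% of all genes passed limma's test, 0 of 10 at an unadjusted p under 0.05) and for P14 against P3 (0.115% of all genes, 2 of 10 unadjusted). Without CSMN P14 replicate 2, Dpysl3 was past both tests (1.83 and 2.26), where both arrays gave 0.73 and 1.16.

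**Figure D3:**
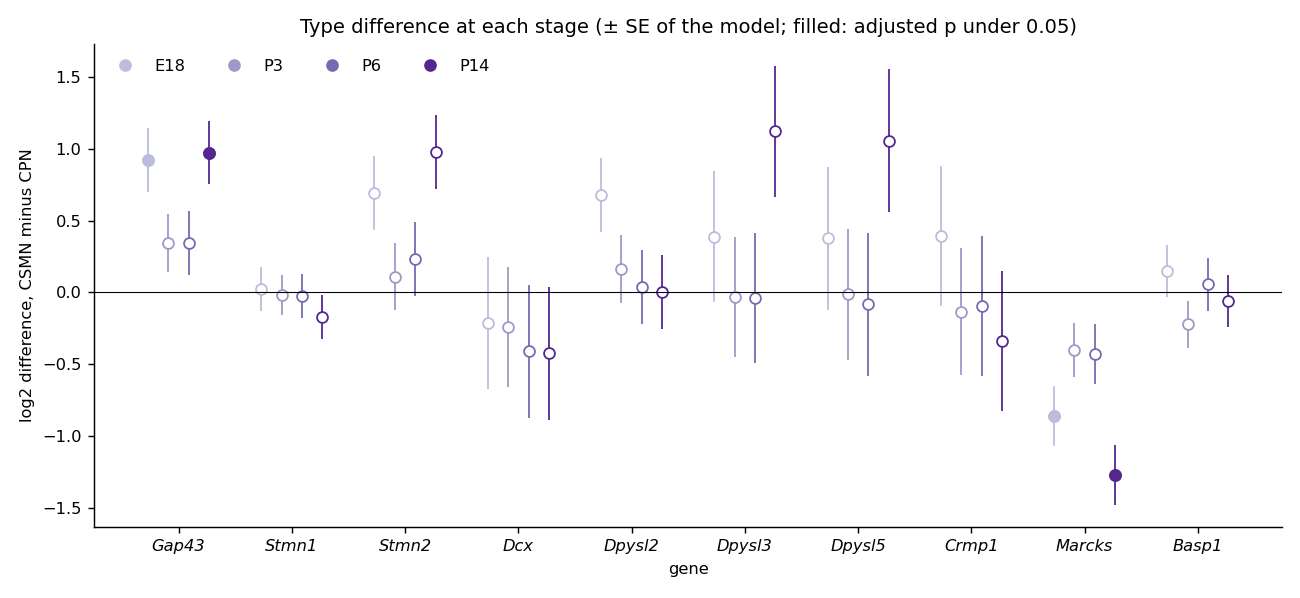
CSMN minus CPN difference in log2 expression for each gene at each stage, with bars of ± SE from the limma model and filled points past the test. Gap43 is above 0 and Marcks below 0 at all 4 stages, with the widest differences at E18 and P14.

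CTPN were available at P14 alone and came from another cortical area, so type and area cannot be told apart in these comparisons. None of the 10 genes passed limma's test in CTPN against CSMN (0.192% of all genes passed, 3 of 10 genes had an unadjusted p under 0.05) or in CTPN against CPN (1.06% of all genes, 4 of 10 unadjusted). Gap43 read 12.94 and 13.29 in CTPN, against 13.26 and 13.04 in CSMN and 12.20 and 12.16 in CPN. CTPN therefore overlapped CSMN and lay above both CPN arrays (CTPN minus CPN 0.94 ± 0.22, adjusted p = 0.0643). Stmn2 had the same arrangement, with 12.76 and 13.26 in CTPN, against 13.22 and 13.20 in CSMN and 12.29 and 12.17 in CPN (CTPN minus CPN 0.78 ± 0.26, adjusted p = 0.297). Marcks read 10.83 and 11.11 in CTPN, between 10.43 and 9.84 in CSMN and 11.51 and 11.30 in CPN, with 0.83 ± 0.21 against CSMN (adjusted p = 0.202) and -0.44 ± 0.21 against CPN (adjusted p = 0.755). Dcx read 9.57 and 11.07 in CTPN, overlapping both other types. Against CSMN P14 replicate 2 alone, Dcx (1.78), Dpysl3 (1.46), Marcks (1.12) and Dpysl2 (0.94) were higher in CTPN past the test, which 5143 of all 18193 genes then passed in either direction. Against replicate 1 alone the differences were 0.48, -0.74, 0.54 and 0.29, none past the test, and that of Dpysl3 had the opposite sign.

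The other genes of growth cones were described by 6 lists of 71 genes, of which 66 were measured. Between P14 and P3, 14 of the 66 were lower and 2 higher in CSMN, and 18 were lower and 2 higher in CPN, with medians of -0.37 and -0.34. Over all genes 8.16% were lower and 4.45% higher in CSMN, and 3.45% lower and 4.68% higher in CPN. The CSMN median was -0.62 without CSMN P14 replicate 1 and -0.19 without replicate 2. The CSMN genes named next are those called with both arrays. Tubulins and microtubule-binding proteins gave the highest count of lower genes. In CSMN 5 of 12 fell, the largest being Map6 (-1.59), which stabilises microtubules against cold, Tubb2b (-1.54), a tubulin of young neurons, Mapt (-1.32), which encodes tau, and Map2 (-1.19). In CPN 7 of 12 fell, led by Map1b (-2.17), an axonal microtubule protein, Tubb2b (-1.77), Map2 (-1.70) and Map6 (-1.61). Of 14 actin regulators 4 fell in CSMN, namely Enah (-1.50) and Evl (-1.46), which lengthen actin filaments, Ablim1 (-1.42) and profilin Pfn1 (-1.22). In CPN 3 fell, Ablim1 (-1.67), Enah (-1.57) and Vasp (-1.32). Among 9 adhesion molecules of growing axons, Chl1 (-1.35) and Ncam1 (-1.20) fell in CSMN, and Chl1 (-1.92), Ncam1 (-1.18), Cntn2 (-1.15) and L1cam (-1.02) fell in CPN.

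Kinases, phosphatases and small GTPases that act on the 10 proteins were the list with rises. Camk2a, a calmodulin-dependent kinase of mature excitatory neurons, was higher at P14 than at P3 by 2.48 ± 0.25 in CSMN and by 2.95 ± 0.27 in CPN. Prkcb, a protein kinase C, rose in CSMN (1.63 ± 0.26), and Ppp3ca, the calcineurin catalytic subunit, rose in CPN (1.36 ± 0.29). Rnd2 (-1.37) and Cdc42 (-0.62) fell in CSMN and the Src family kinase Fyn (-1.03) in CPN, of 16 measured. Of 5 RNA-binding proteins of the Hu family and relatives, which bind the Gap43 transcript among others, 0 passed in CSMN, and Elavl3 (-1.26) and Elavl2 (-1.12) fell in CPN. Of 10 measured genes in the list named relatives, Nsg1 alone passed, with -0.84 in CSMN and -1.05 in CPN. Nsg1 is not of the protein families of the genes described.

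Between E18 and P3 the same 66 genes gave 12 higher and 0 lower in CSMN, and 12 higher and 0 lower in CPN. Over all genes 7.93% were higher in CSMN and 3.86% in CPN. The CPN values again use the E18 arrays with high progenitor, cell cycle and astrocyte markers and low pan-neuronal markers, whose part was not tested. Nrgn, which like Gap43 binds calmodulin through an IQ motif, rose by 2.24 ± 0.29 in CSMN and by 2.16 ± 0.32 in CPN. Prkcb rose by 3.12 ± 0.26 in CSMN and by 1.79 ± 0.28 in CPN, and the adhesion molecule Cntn1 by 1.52 ± 0.17 in CSMN and by 1.93 ± 0.18 in CPN. Between the types, averaged over the stages, 6 of 66 were higher in CSMN and 2 lower, against 2.96% higher and 5.34% lower over all genes (8.29% in all). Without the E18 arrays 4 were higher and 0 lower, where 4.11% of all genes passed and 2.02% were lower. Higher genes included Tubb3 (0.58 ± 0.13), the neuronal beta-tubulin, Prkce (0.55 ± 0.09) and Cntn1 (0.51 ± 0.09), and the lower ones were Alcam (-0.75 ± 0.20) and Prkcb (-0.53 ± 0.14).

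**Figure D4:**
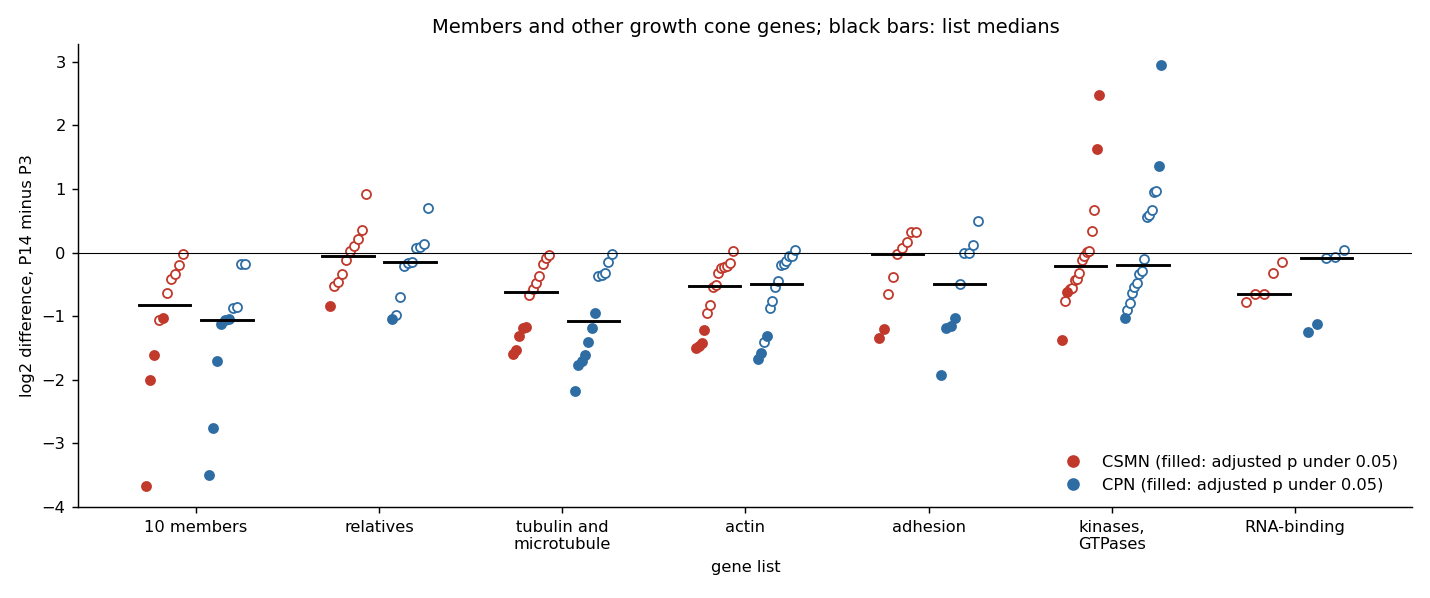
Difference between P14 and P3 in log2 expression for the measured genes of each list, in CSMN and in CPN; each point is a gene, filled where it passed, and black bars are list medians. The tubulin and microtubule points lie below 0 in both types, and the highest points, in the kinase list, are Camk2a.

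Across the 9 group means the 10 genes did not follow a single course. Gap43 and Stmn2 resembled each other (Pearson r = 0.93), as did Dpysl3 and Dpysl5 (0.95), Stmn1 and Crmp1 (0.97) and Dcx and Dpysl3 (0.91), while Marcks was near 0 with Basp1 (0.00) and below 0 with Gap43 (-0.13). Among 9086 other genes brighter than the median gene, the nearest to Dcx were St8sia2 (0.99), which adds polysialic acid to neural cell adhesion molecule, Macf1 (0.99), a linker of actin and microtubules, and Idh1 (0.99). The nearest to Gap43 were Klhl32 (0.96), Reep1 (0.95) and Nmnat2 (0.95), the axonal enzyme of NAD synthesis. Marcks was nearest to Sema4c, Hmgb3 and Leprot (0.99, 0.99 and 0.98), Dpysl3 to Mtss1 (0.99), Ndrg1 (0.97) and Srgap2 (0.97), and Stmn2 to Map1b (0.95). These coefficients describe 9 points that share stages and arrays, and high values are common when so many genes are searched.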

How the data were processed

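RNA of 19 samples was measured on Affymetrix 430 2.0 arrays. The authors deposited log2 values for each probe set, made with RMA per the submitters' processing notes, and these were taken unchanged (range 3.17 to 14.4). No software version is given in the sources used here. The 45101 probe sets include 64 controls. A single symbol belongs to 34945, several symbols to 932 and no symbol to 9160. Each gene was read from its brightest probe set with 1 symbol, which gave 18193 genes, and 18031 matched RefSeq by gene identifier with 0 symbols changed.

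All arrays entered a single limma fit with a mean for each of the 9 groups, leaving 10 residual degrees of freedom and 4.46 from the prior. Its moderated tests were two-sided, and p was adjusted by Benjamini-Hochberg over all genes, with a threshold of 0.05. On simulated data for P14 against E18 in CPN, with 100 genes of 18193 changed by each size, the model recovered 25% of changes of 1 and 92% of changes of 2. The small number of arrays limits the precision. Folds are given where all arrays lay above the array medians. The 10 genes, the lists and the markers were chosen with earlier results of these data known. The text names all 10 genes, up to 4 genes per list that passed with the largest differences, and the 3 genes most like each gene described, by Pearson correlation over group means among genes brighter than the median gene. Marker sets are given by their median per array.

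Alternatives were quantile and cyclic loess normalization, restricting the test to brighter genes, averaging a gene's probe sets, leaving out cross-hybridizing probe sets, an intensity trend, array weights, the groups compared alone, a replicate block, a minimum difference of 1, the E18 arrays not used, and leaving out each array. The second brightest probe set, and values over the lists without single CSMN P14 arrays or the E18 arrays, were added after seeing the data. Replicate numbers do not pair the samples: over 36 pairs of groups the correlation of deviations ran from -0.22 to 0.59 (median 0.08). Sequences are from RefSeq (GRCm38.p6). Tests were run in limma 3.58.1 under R 4.3.3 and figures drawn with matplotlib 3.10.9 under Python 3.11.15.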

Additional observations from a re-analysis of the deposited data

Results flagged for a closer look

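Dpysl2 and Marcks were flagged between E18 and P3 because the arrays of these stages did not overlap, with opposite directions in CSMN and CPN. The share of all genes that meet this rule was not counted. Separation is frequent with so few arrays, as 27.1% of all genes had every CPN array at P14 below those at P3. For Dpysl2 the P3 mean differed from the E18 mean by -0.27 in CSMN and by 0.24 in CPN, a difference between types of -0.51. All 3 CSMN arrays at P3 lay below both at E18, and both CPN arrays at P3 lay above both at E18. For Marcks the change was 0.26 in CSMN and -0.20 in CPN, a difference of 0.46, with the arrays of the stages again apart in both types. Neither change passed limma's test within a type, and the difference between types was not tested. Both CPN values use the E18 arrays with high radial glia, cell cycle and astrocyte markers, and the part of these markers was not tested. With cyclic loess normalization Dpysl2 was lower at P3 than at E18 in CSMN past the test (-0.88, adjusted p = 0.00905).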

How the results depend on the processing

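The 35 gene differences that passed kept their sign in 1059 of 1059 recomputed values and passed in 908. Many recomputations change only the spread, the threshold or the genes tested, or leave out an array outside the compared groups. The difference itself then stays the same and its sign could not change, so the count of signs kept is no measure of stability. Where a difference passed before or after recomputation, only that of Gap43 between P14 and E18 in CPN reversed. It went from 0.25 (not passed) to -1.05 (adjusted p = 0.00829) with P3 in place of E18. Differences that passed in neither were not counted here. Some of those changed sign, such as Dpysl5 in CSMN and Dpysl3 in CTPN against CSMN, given above. Counts of the 10 genes called moved as follows. The share of all genes that passed in each setting is not given beside these counts or the leave-one-out counts below. They therefore do not show a shift particular to the 10 genes. Quantile normalization gave 0 for P3 against E18 in CSMN and 1 for CTPN against CPN. Cyclic loess gave 5 in CPN and 6 in CSMN for P14 against E18, 1 for P3 against E18 in CPN, and 2 for CTPN against CPN. Genes above the median alone gave 1 for CSMN against CPN at P14. The mean of all probe sets gave 5 for P14 against E18 in CSMN, 5 for CSMN against CPN over 4 stages and 1 for CTPN against CPN, where the intensity trend also gave 1. Array weights gave 0 for P14 against E18, 2 for P14 against P3, 0 for P3 against E18 and 1 for P14 against P6 in CSMN, 0, 2 and 0 for CSMN against CPN at E18, P3 and P14, and 2 for CTPN against CPN. The groups compared alone gave 1, 2, 0 and 0 for those 4 steps in CSMN, 0 and 0 for CSMN against CPN at E18 and P14, and 1 for CTPN against CPN. The replicate block gave 1 for CSMN against CPN at P14, losing Gap43 (adjusted p = 0.0541), and changed no other count by over 1.5 times. A minimum difference of 1 gave 1 in CPN and 0 in CSMN for P3 against E18, and 0, 0 and 1 for CSMN against CPN over 4 stages, at E18 and at P14. Without E18, P14 against the first stage in CPN gave 6. The cause of these shifts was not tested.

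Leaving out each array in turn gave, from lowest to highest count, 3 to 5 in CSMN and 3 to 3 in CPN for P14 against E18, 2 to 6 and 2 to 7 for P14 against P3, 0 to 1 and 1 to 3 for P3 against E18, 0 to 0 and 0 to 0 for P6 against P3, and 2 to 6 and 2 to 6 for P14 against P6. For CSMN against CPN it gave 2 to 4 over 4 stages, 0 to 3 at E18, 0 to 0 at P3, 0 to 0 at P6 and 0 to 3 at P14, 0 to 1 for each difference between changes, 0 to 4 for CTPN against CSMN and 0 to 2 for CTPN against CPN. The P14 against P3 count in CPN was 2 without CPN P3 replicate 1 and 3 without CPN P3 replicate 2 or either CPN P14 array, and in CSMN it was 2 without P14 replicate 2. The values carry no detection calls, so depth is not known, and 2 arrays per group set the limit.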
